A study of Oryctolagus cuniculus with 15 samples.

Results

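The Wnt ligands, their receptors and their secreted regulators were examined in rabbit corneal keratocytes, the resident cells of the corneal stroma. All genes of the count table whose symbol begins with WNT, FZD, SFRP, DKK or RSPO and a digit were taken, together with LRP5, LRP6, WIF1 and FRZB. This gave 43 genes out of 23428, of which 18 were ligands, 11 were receptors, 10 were antagonists and 4 were R-spondins. Primary keratocytes from New Zealand white rabbits were sequenced at first passage after 6 days in serum-free medium, with 3 libraries from separate experiments in each of 5 conditions (15 libraries). Cells were plated on dishes coated with collagen (2DC) or on the surface of a fibrillar collagen matrix (2DF), or were mixed into such a matrix at 100000 (3DF) or 50000 (3DF_50) cells per matrix. These 4 conditions were incubated in collagenase and hyaluronidase medium before lysis, and 2DC_L was a collagen-coated condition lysed in the dish without that incubation. Cells in matrices were also pelleted before lysis, so that recovery from the matrix and culture in or on it cannot be told apart. Several dishes or matrices were pooled for each library. All conditions shared the same defined medium.

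Wnt proteins are secreted, lipid-modified ligands that bind frizzled (FZD) receptors at the cell surface. With the co-receptors LRP5 and LRP6 they stabilize β-catenin, whereas ligands such as WNT5A and WNT11 are mostly known for signaling through planar cell polarity and calcium. Most Dickkopf (DKK) proteins, though not the divergent DKK3, are known to bind LRP5 and LRP6. The sFRP proteins, FRZB and WIF1 bind the ligands themselves, and R-spondins raise the amount of frizzled at the membrane.

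Between 14626982 and 31804255 reads were counted per library, and levels are given in the authors' FPKM, which divide counts by gene length and a library size. Differences are log2 fold changes with their standard error (SE) from edgeR's quasi-likelihood F test with Benjamini–Hochberg adjustment over all genes tested. A gene was called where the adjusted p did not exceed 0.05 and the condition means differed by a log2 fold change of 1 or more in either direction. Keratocyte markers summed to between 20151 and 43134 FPKM over the libraries, with 7 of 9 markers in the table, while leukocyte markers summed to at most 8.28 FPKM and Schwann cell and melanocyte markers to at most 4.68 FPKM.

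Of the 43 genes, 18 reached a mean of 1 FPKM in at least 1 condition. They were 5 ligands (WNT5A, WNT4, WNT11, WNT9A and WNT2), 9 receptors (FZD1, FZD2, FZD4, FZD5, FZD6, FZD7, FZD8, LRP5 and LRP6) and the antagonists DKK2, DKK3, WIF1 and FRZB. No R-spondin reached this level. The remaining 25 genes had between 0 and 868 counts over all 15 libraries together, and WNT9B had 0 in every library. At this depth a limit of 3 counts corresponds to between 0.0943 and 0.205 CPM, and RSPO1, RSPO2, RSPO4, WNT1, WNT10A and WNT9B did not exceed 3 counts in any library. DKK1, a Dickkopf that blocks LRP6, had 4 counts in 2DF replicate 1 and 0 in the other libraries.

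**Figure D1:**
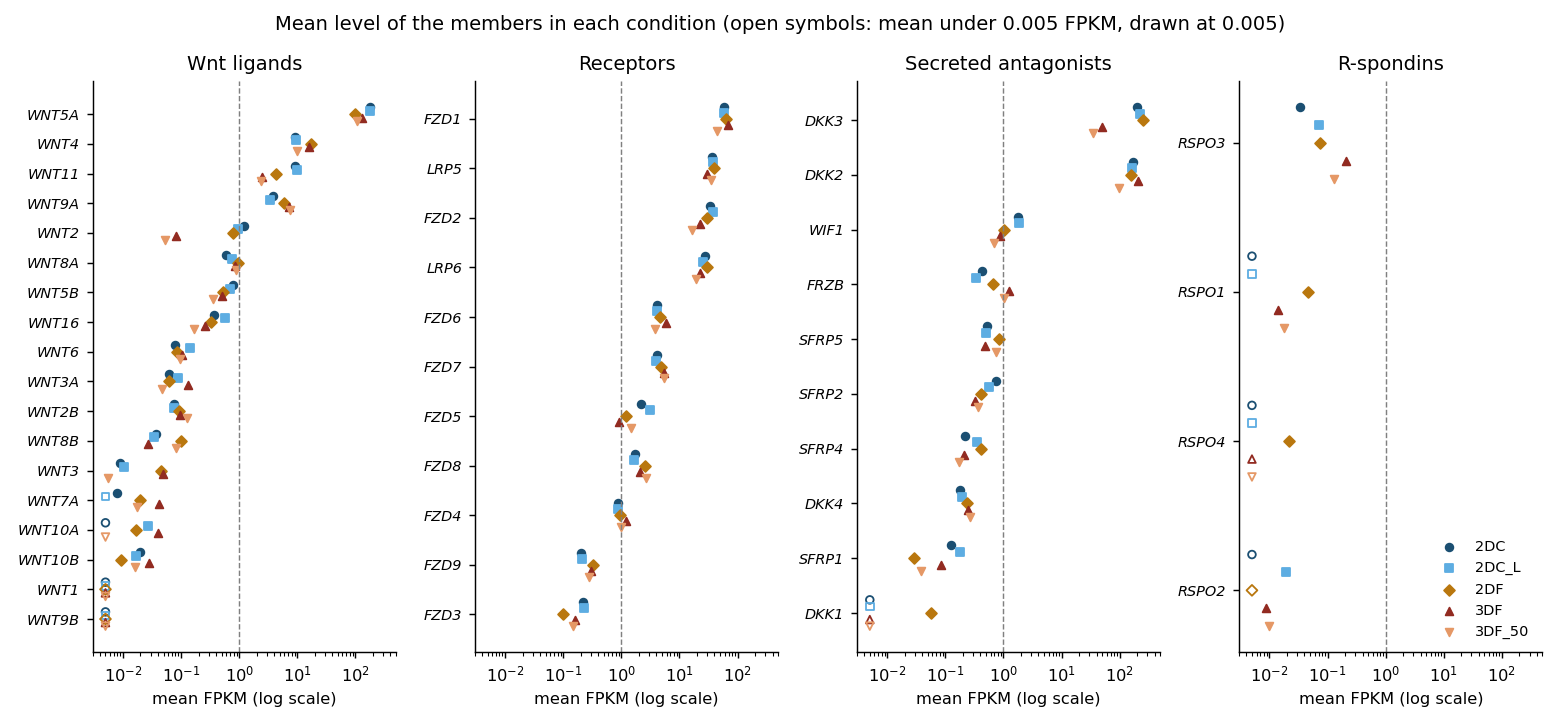
Mean FPKM (logarithmic axis, n = 3 libraries) of the 43 genes in each of the 5 conditions, arranged by role. The dashed line marks 1 FPKM and open symbols are means too low for the axis. WNT5A, FZD1, DKK2 and DKK3 lie far to the right of most members of their class, and the triangles of DKK3, WNT11 and WNT2 (3DF and 3DF_50) are set apart to the left of the circles and squares (2DC and 2DC_L).

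Several members with few counts lie next to each other in the oryCun2 genome. WNT10B and WNT1 on chromosome 4 are 5088 bases apart and had 13 and 2 counts over all libraries. WNT6 and WNT10A on chromosome 7 are 7032 bases apart, with 44 and 11 counts, and WNT9B and WNT3 on chromosome 19 are 43338 bases apart, with 0 and 25 counts. No other gene of the table lies between the genes of these 3 pairs. Expressed members were spread over the genome, and the closest member to DKK3 on chromosome 1 was WNT11, at a distance of 13080038 bases with 305 genes between them.

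A further 3 genes without a symbol are described in the table as Wnt genes and were not counted among the 43. LOC103347478, described as LRP5, had 43.6 to 51.7 mean FPKM across conditions and was called in no comparison. The gene with the LRP5 symbol is a model of 1824 bases on scaffold Un0221, so that reads of this co-receptor were split over a pair of models. LOC100355594, described as FZD10, had 0.0786 ± 0.0297 FPKM in 2DC and 0.312 ± 0.113 FPKM in 3DF (SD, n = 3) and was called higher in 3DF (log2 fold change 1.92, SE 0.48, edgeR adjusted p = 0.0293). This call rests on 6, 2 and 4 counts in 2DC and 14, 20 and 9 in 3DF, and the gene passed the count filter through 3DF alone. Its mean was highest in 2DF, at 0.488 ± 0.527 FPKM. In 3DF_50 vs. 2DC_L it was not called (log2 fold change 1.14, SE 0.83, edgeR adjusted p = 0.296). LOC103347432, described as WNT7B, had no mean over 0.0619 FPKM.

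The comparison of 3DF with 2DC combines dimensionality, fibrillar structure and substrate stiffness. It called 7 of the 26 members tested, or 26.9%, beside 7.56% of all 13493 genes tested. One member (FRZB) was higher, where 3.24% of all genes were, and 6 (DKK3, FZD5, SFRP2, WIF1, WNT11 and WNT2) were lower, where 4.32% of all genes were. Of these, SFRP2 and WNT2 passed the count filter only through 2DC, where they were higher, so their calls depend on that filter. Adjusted p alone, with no limit on the fold change, was passed by 10 members (15.4% of all genes), which added WNT4, WNT9A and FZD2. The 3DF and 2DC libraries did not overlap in FPKM for 16 of the 26 members (37.8% of all genes), with 6 above and 10 below. The median log2 fold change of the members was -0.18, and that of all genes was 0.012. In bulk libraries a lower level can mean fewer expressing cells or less RNA per cell, and these cannot be told apart.

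Placing cells on top of a fibrillar matrix (2DF vs. 2DC), which changes structure and stiffness in 2D, called 1 of 26 members (WNT11, lower), with 4.96% of all genes called. Adjusted p alone was passed by 4 members, all of them ligands (WNT11, WNT4, WNT5A and WNT9A), and by 14.4% of all genes. The comparison of 3DF with 2DF, in which the matrix is matched but the effective cell density is not, called 1 of 25 members (DKK3, lower), with 3.78% of all genes called. Lowering the cell number within 3D matrices (3DF vs. 3DF_50) set 1 of 24 members apart (DKK2, higher in 3DF), with 0.452% of all genes called. These comparisons share libraries, so that their differences are not independent.

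The digestion medium comparison (2DC vs. 2DC_L) called 0 of 27 members with edgeR and 0 with DESeq2, and 0 members had an unadjusted p under 0.05 in edgeR, with 0.265% of all genes called. The log2 change was -0.023 (SE 0.10) for WNT5A, 0.036 (SE 0.10) for DKK2, -0.15 (SE 0.24) for DKK3 and -0.12 (SE 0.18) for WNT11. The SE for WNT2 was larger, with a log2 change of 0.28 (SE 0.64).

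The other 3D and collagen-coated conditions, 3DF_50 and 2DC_L, share no library with 3DF and 2DC, although some library names share a prefix. These conditions also differ in digestion and in effective cell density, which cannot be told apart from the matrix. Here 8 of 26 members were called, or 30.8%, beside 13.5% of all genes. FRZB and WNT9A were higher (5.05% of all genes were) and DKK3, FZD2, FZD5, WIF1, WNT11 and WNT2 were lower (8.47% of all genes were). WNT2 passed the count filter only through 2DC_L, where it was higher. Adjusted p alone was passed by 13 members (42.9% of all genes). Of the 7 members called in 3DF vs. 2DC, 6 were also called in the same direction in 3DF_50 vs. 2DC_L (DKK3, FRZB, FZD5, WIF1, WNT11 and WNT2), which is 85.7% of the first list and 75.0% of the second. Over all genes the shared calls were 77.5% of the first list and 43.9% of the second. Across all 5 conditions, 15 of 29 members differed (51.7%, edgeR F test, adjusted p of at most 0.05), beside 41.8% of all genes, a share not far from the background.

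**Figure D2:**
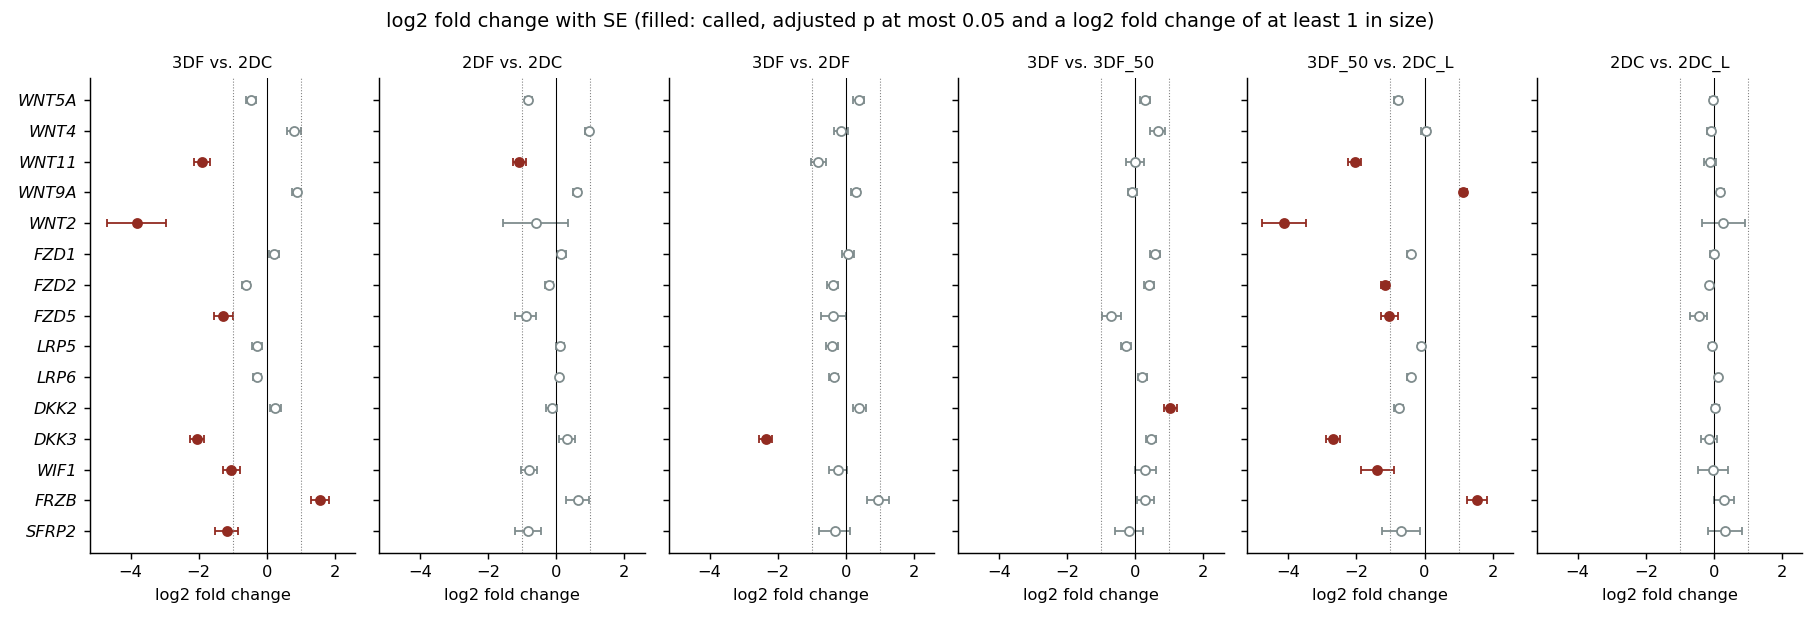
log2 fold change (horizontal axis, bars are SE) of 15 members in 6 comparisons, each panel 1 comparison with the first condition over the second. Filled red points are called, grey open points are not, a missing point was not tested, dotted lines mark a log2 fold change of 1 in either direction. DKK3 is called in 3 panels at -2.05, -2.35 and -2.68, and the panel for 2DC vs. 2DC_L holds no called point.

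Among the ligands, WNT5A (oryCun2 chr9:22336019-22345730, minus strand) was the most abundant in every library, with 73.8 to 89.5% of the summed ligand FPKM. In 2DC the WNT5A libraries stood at 165, 176 and 193 FPKM, in 2DF at 93.4, 113 and 93.2 FPKM, and in 3DF at 109, 141 and 139 FPKM. All fibrillar collagen libraries were below all 2DC libraries, and 2DF and 3DF overlapped. The WNT5A level was lower in 2DF than in 2DC by a log2 change of -0.83 (SE 0.10, edgeR adjusted p = 0.00157), short of the fold limit for a call. The difference of 3DF from 2DC, at -0.47, did not pass (SE 0.14, edgeR adjusted p = 0.0557). In 3DF_50 WNT5A had 105 ± 13.4 FPKM, against 181 ± 21.5 FPKM in 2DC_L (SD, n = 3; log2 fold change -0.78, SE 0.12, edgeR adjusted p = 0.000552).

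WNT11 (chr1:140610815-140630036, plus strand), which acts in convergent extension movements of the embryo, was the ligand called in the most comparisons. It stood at 6.99, 8.52 and 11.8 FPKM in 2DC, at 4.18, 4.06 and 4.57 FPKM in 2DF, and at 2.41, 2.97 and 1.95 FPKM in 3DF. The 3 conditions did not overlap, with 2DF between 2DC and 3DF. WNT11 fell in 3DF relative to 2DC (log2 fold change -1.90, SE 0.24, edgeR adjusted p = 0.0015) and in 2DF relative to 2DC (-1.08, SE 0.19, edgeR adjusted p = 0.0072). Without 2DC replicate 3, which had the highest value of that condition, the 2DF difference was -0.85 and no longer called, and with the library-name prefix as a block it was -1.36 and not called (edgeR adjusted p = 0.402). The block fit called 0.114% of all genes in this pair. Only a single 2DF library shares its prefix with another condition, so the block fit cannot decide whether the WNT11 difference holds. The step from 2DF to 3DF was -0.80 (SE 0.21, edgeR adjusted p = 0.0578). The pattern was found again in 3DF_50, at 1.64, 2.65 and 2.85 FPKM, against 10.3, 10.4 and 8.90 FPKM in 2DC_L (log2 fold change -2.05, SE 0.19, edgeR adjusted p = 2.64e-05). The difference between 3DF and 3DF_50 was 0.011 (SE 0.26).

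WNT4 and WNT9A moved the other way. WNT4, known for its part in kidney and gonad development, had 9.0 ± 0.376 FPKM in 2DC, 17.4 ± 1.39 FPKM in 2DF and 15.7 ± 4.34 FPKM in 3DF (SD, n = 3). Its log2 fold change was 0.95 for 2DF vs. 2DC (SE 0.11, edgeR adjusted p = 0.000913) and 0.80 for 3DF vs. 2DC (SE 0.20, edgeR adjusted p = 0.0301), both under the fold limit. In 3DF_50, however, WNT4 had 9.78 ± 1.12 FPKM and overlapped 2DC_L, at 9.53 ± 1.27 FPKM (log2 fold change 0.034, SE 0.14). The 3DF libraries lay above the 3DF_50 libraries for WNT4, with a log2 change of 0.66 that did not pass (SE 0.21, edgeR adjusted p = 0.149). WNT9A, a ligand with roles in joint formation, had 3.85 ± 0.425 FPKM in 2DC, 5.88 ± 0.576 FPKM in 2DF, 7.16 ± 0.544 FPKM in 3DF and 7.46 ± 0.790 FPKM in 3DF_50. It was higher in 2DF than in 2DC (log2 fold change 0.61, SE 0.12, edgeR adjusted p = 0.0104) and in 3DF than in 2DC (0.88, SE 0.13, edgeR adjusted p = 0.00312), and it was called higher in 3DF_50 than in 2DC_L (1.14, SE 0.10, edgeR adjusted p = 2.37e-05).

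WNT2, a ligand of the β-catenin branch, was low and variable on dishes and had few reads in 3D. It stood at 0.368, 0.785 and 2.48 FPKM in 2DC (25, 40 and 127 counts), and at 0.0345, 0.172 and 0.0428 FPKM in 3DF (2, 9 and 2 counts). These groups did not overlap, and the log2 change of -3.83 (SE 0.87, edgeR adjusted p = 0.0198) rests on these few reads. Without 3DF replicate 1 or 3DF replicate 3 the call was lost, and the log2 fold change ranged from -4.91 without 3DF replicate 2 to -2.75 without 2DC replicate 3. 2DF spanned both ends, at 0.271, 0.0978 and 1.99 FPKM, and its comparison with 3DF had too few counts for the filter. In 3DF_50 WNT2 had 3, 0 and 4 counts, against 69, 88 and 20 in 2DC_L, with a log2 change of -4.12 (SE 0.64, edgeR adjusted p = 0.000675).

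The order of the ligands therefore differed between conditions. In 2DC the levels ran WNT5A, WNT11, WNT4, WNT9A and WNT2, with overlapping libraries for WNT11 and WNT4, and 2DC_L had the same order with the same overlap. In 2DF, 3DF and 3DF_50 it ran WNT5A, WNT4, WNT9A and WNT11, with no overlap between neighbours. These orders are by FPKM and depend on the gene models, which have 1390 bases for WNT4 and 5319 for WNT9A. By counts WNT9A exceeded WNT4 in every library, with 9288 and 5461 over all libraries. Summed over the 18 ligands, the level was 203 ± 16.7 FPKM in 2DC, 207 ± 19.5 FPKM in 2DC_L, 130.4 ± 11.3 FPKM in 2DF, 157 ± 15 FPKM in 3DF and 126 ± 13.6 FPKM in 3DF_50 (SD, n = 3). WNT8A had a mean of at most 0.938 FPKM, in 2DF, and no call in any comparison, and WNT5B overlaps a gene on the other strand (FBXL14) and was not called either. WNT16 had 0.164 ± 0.135 FPKM in 3DF_50 and 0.565 ± 0.438 FPKM in 2DC_L (SD, n = 3), and its log2 difference of -1.68 did not pass (SE 0.71, edgeR adjusted p = 0.0829), though DESeq2, edgeR without a filter, edgeR with all 5 conditions in the fit and edgeR with a replicate block called it lower.

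**Figure D3:**
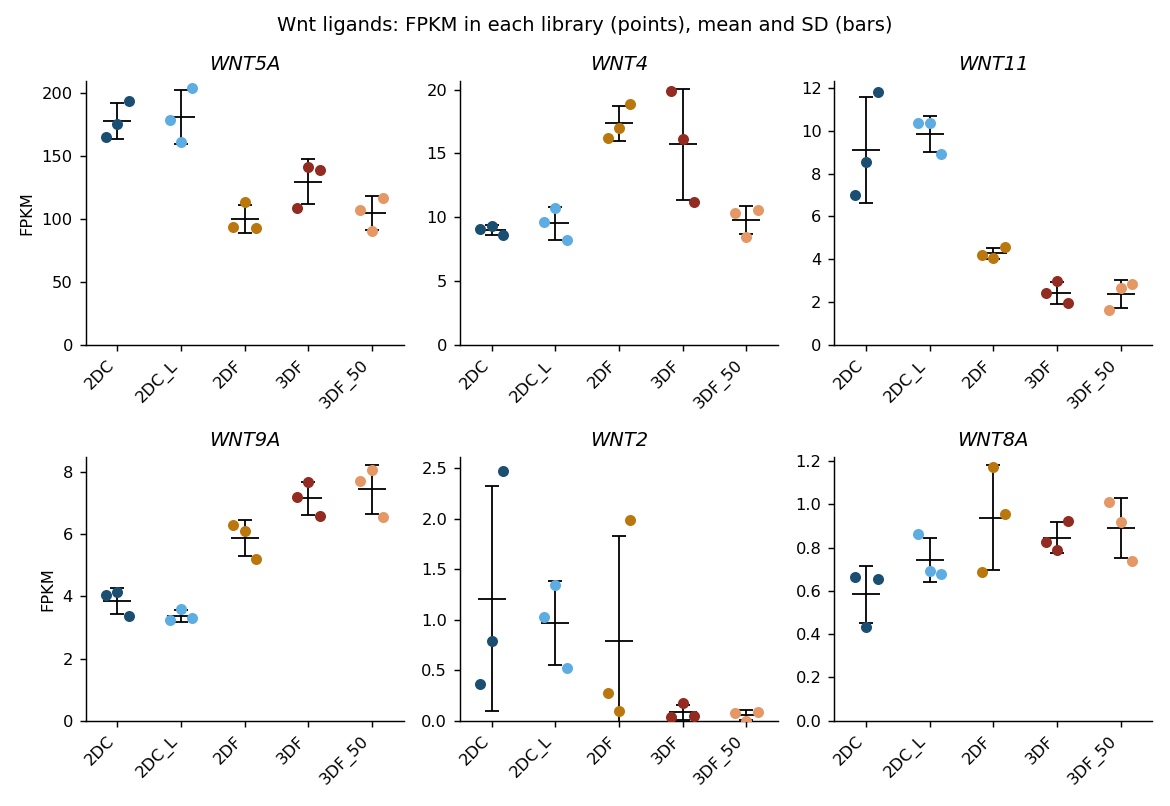
FPKM (vertical axes, each from 0) of 6 Wnt ligands in each library of the 5 conditions, with the mean (wide bar) and SD (whiskers, n = 3). WNT11 steps down from 6.99 or more in 2DC to 2.97 or less in 3DF, WNT9A steps up, and WNT4 is high in 2DF and 3DF but not in 3DF_50.

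Of the 11 receptors, FZD1, LRP5, FZD2 and LRP6 had the highest mean FPKM in every condition, and FZD1 was first in each. By counts LRP6 exceeded FZD1 (66633 and 32465 over all libraries), with gene models of 8188 and 1693 bases. The other LRP5 model, LOC103347478, is left out of this ranking and of the receptor sums. It had a mean of 44.8 FPKM in 3DF_50, close to FZD1 there. FZD1 had 58.1 ± 6.89 FPKM in 2DC, 64.3 ± 10.4 FPKM in 2DF, 67.6 ± 11.6 FPKM in 3DF and 44.4 ± 5.50 FPKM in 3DF_50 (SD, n = 3). It passed the adjusted p in 3DF_50 vs. 2DC_L, where it was lower (log2 fold change -0.40, SE 0.10, edgeR adjusted p = 0.0101), and not in 3DF vs. 2DC (0.21, SE 0.15, edgeR adjusted p = 0.407). LRP5 had means between 29.9 FPKM in 3DF and 39.3 FPKM in 2DF and passed in no comparison. LRP6 had 28.0 ± 0.294 FPKM in 2DC, 23.0 ± 2.33 FPKM in 3DF and 19.5 ± 1.57 FPKM in 3DF_50. Its log2 change was -0.29 in 3DF vs. 2DC (SE 0.11, edgeR adjusted p = 0.121) and -0.41 in 3DF_50 vs. 2DC_L (SE 0.10, edgeR adjusted p = 0.0102). The FZD1 and LRP6 differences in 3DF_50 depend on the scaling, which FPKM and edgeR nearly share. FPKM library sizes were 1.19 to 1.24 times the summed counts in 3DF_50 and 0.921 to 0.971 times in 2DC_L. FZD1 had 1378, 1199 and 1623 counts in 3DF_50, of 14626982, 14975261 and 16472547 in all. In 2DC_L it had 2843, 2963 and 1562, of 30518172, 29078757 and 17973130. As shares of these totals, the FZD1 libraries overlap.

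FZD2, a close relative of FZD1 and FZD7, was lower in 3D. It had 34.1 ± 1.60 FPKM in 2DC, 29.4 ± 5.14 FPKM in 2DF, 22.5 ± 1.97 FPKM in 3DF and 16.7 ± 3.04 FPKM in 3DF_50 (SD, n = 3). The 3DF libraries were all below the 2DC libraries, with a log2 change of -0.61 (SE 0.11, edgeR adjusted p = 0.00815) that was under the fold limit. In 3DF_50 it was called lower than in 2DC_L, where it had 37.5 ± 2.44 FPKM (log2 fold change -1.16, SE 0.12, edgeR adjusted p = 6.73e-05). The call was lost when libraries were scaled by their size alone.

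FZD5 was the receptor called in 3DF vs. 2DC. Its libraries stood at 2.25, 2.63 and 1.78 FPKM in 2DC, at 1.46, 1.38 and 0.711 FPKM in 2DF, and at 0.722, 1.23 and 0.809 FPKM in 3DF. All fibrillar collagen libraries were below all 2DC libraries, and 2DF and 3DF overlapped. The log2 change was -1.28 for 3DF vs. 2DC (SE 0.28, edgeR adjusted p = 0.0178) and -0.90 for 2DF vs. 2DC, which did not pass (SE 0.30, edgeR adjusted p = 0.0816). The 3DF call was lost without 2DC replicate 2 or 3DF replicate 3. FZD5 also fell in 3DF_50 relative to 2DC_L (-1.03, SE 0.25, edgeR adjusted p = 0.0077), and this call was lost without 2DC_L replicate 3, at 4.24 FPKM, or 3DF_50 replicate 3.

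The other frizzled receptors showed smaller differences. FZD7 had means between 4.0 FPKM in 2DC_L and 5.53 FPKM in 3DF_50 (log2 fold change between these 0.47, SE 0.12, edgeR adjusted p = 0.0108). FZD6, which takes part in planar cell polarity, had 4.19 ± 0.217 FPKM in 2DC and 5.79 ± 1.24 FPKM in 3DF (SD, n = 3; log2 fold change 0.46, SE 0.17, edgeR adjusted p = 0.111). FZD8 had means from 1.65 to 2.69 FPKM and FZD4, the receptor of norrin, from 0.871 to 1.22 FPKM, and neither passed in any comparison. FZD3 and FZD9 stayed under 1 FPKM. Summed over the 11 receptors, the level was 170.1 ± 8.32 FPKM in 2DC, 177 ± 22.6 FPKM in 2DF, 159 ± 9.81 FPKM in 3DF and 131 ± 6.01 FPKM in 3DF_50.

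**Figure D4:**
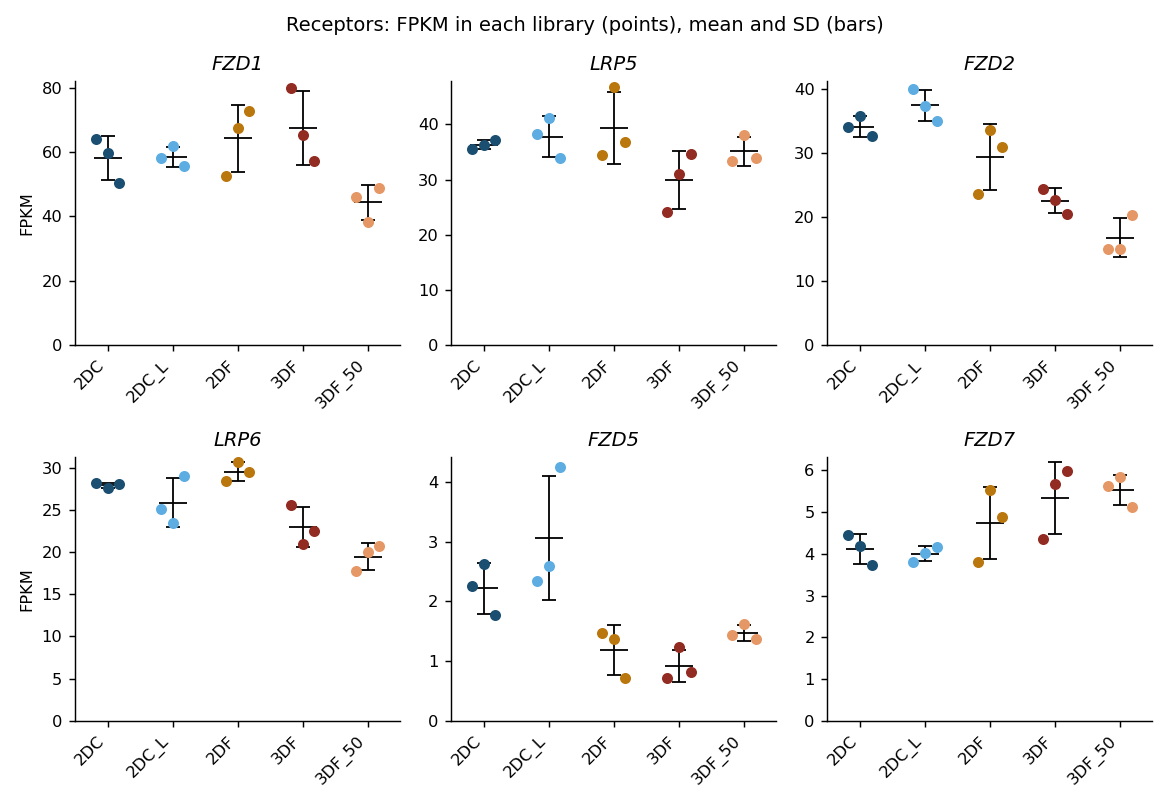
FPKM (vertical axes, each from 0) of 6 receptors in each library of the 5 conditions, with the mean (wide bar) and SD (whiskers, n = 3). FZD2 and FZD5 lie lower in 3DF than in 2DC with no overlap, while FZD1 and FZD7 overlap between these conditions.

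Among the antagonists, DKK2 and DKK3 together made up 97.3 to 99.4% of the summed FPKM of the 10 genes in every library. DKK2 binds LRP5 and LRP6, while DKK3 is a divergent member of the family whose effect on Wnt signaling differs between cell types. DKK3 (chr1:153710074-153755246, minus strand) stood at 142, 216 and 245 FPKM in 2DC, at 221, 203 and 323 FPKM in 2DF, and at 42.5, 48.7 and 55.1 FPKM in 3DF. Every 3DF library was thus far below every 2D library, whereas 2DC and 2DF overlapped. DKK3 fell in 3DF relative to 2DC (4.15-fold by edgeR, log2 fold change -2.05, SE 0.21, edgeR adjusted p = 0.000599) and relative to 2DF (5.10-fold, log2 fold change -2.35, SE 0.20, edgeR adjusted p = 0.000482). The difference between 2DF and 2DC was 0.32 (SE 0.22, edgeR adjusted p = 0.379).

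The same held at the lower cell number, with DKK3 at 41.2, 33.1 and 29.5 FPKM in 3DF_50, against 220.4, 281 and 165 FPKM in 2DC_L (log2 fold change -2.68, SE 0.20, edgeR adjusted p = 7.65e-06). The DKK3 calls in 3DF vs. 2DC and 3DF_50 vs. 2DC_L were kept in all 10 other settings of the test and in the 6 fits that each left out 1 library. In a fit of all conditions with the library-name prefix as a block, the difference of 3DF from 2DF was -2.30 and not called (edgeR adjusted p = 0.149). That fit called 0.0285% of all genes in this pair. As a single 2DF library shares its prefix with another condition, the fit cannot decide whether the difference holds.

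The summed level of the corneal endothelium markers was also lower in 3D. It was 372 to 494 FPKM in 2DC, 412 to 531 FPKM in 2DF, 188 to 245 FPKM in 3DF and 105 to 132 FPKM in 3DF_50, with 6 of 6 markers in the table. COL8A2, a basement membrane collagen, held most of this sum, with 227 to 354 FPKM in 2DC, 332 to 416 FPKM in 2DF and 92.0 to 157 FPKM in 3DF. The other members differed among themselves. TFAP2B was at 27.8 to 31.0 FPKM in 2DC and 32.9 to 35.0 FPKM in 3DF, ALCAM was at 44.9 to 66.4 FPKM in 2DC, 23.6 to 36.4 FPKM in 2DF and 25.7 to 33.7 FPKM in 3DF, and the transporter SLC4A4 was at 49.4 to 66.0 FPKM in 2DC, 29.0 to 48.3 FPKM in 2DF and 19.8 to 27.4 FPKM in 3DF. The endothelial transporter SLC4A11 was between 0.400 and 1.28 FPKM and CA3 at most 0.194 FPKM in every library. The part of these cells in the DKK3 result was not tested.

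DKK2 (chr15:42513162-42625993, plus strand) was not called between 3DF and either 2D condition. It stood at 152, 172 and 185 FPKM in 2DC, at 116, 158 and 188 FPKM in 2DF, and at 247, 181 and 180.1 FPKM in 3DF. The 3DF libraries overlapped both 2D conditions, with a log2 change of 0.25 against 2DC (SE 0.16, edgeR adjusted p = 0.327) and 0.40 against 2DF (SE 0.20, edgeR adjusted p = 0.278). At the lower cell number it was lower, at 100.1, 77.7 and 114 FPKM in 3DF_50, below every other library. DKK2 was called higher in 3DF than in 3DF_50 (2.05-fold, log2 fold change 1.03, SE 0.18, edgeR adjusted p = 0.0445). That call was kept in 1 of the 6 fits that left out 1 library, the fit without 3DF replicate 2, in which the adjusted p was 0.0461, and the log2 fold change ranged from 0.87 to 1.15 over them. In 3DF_50 vs. 2DC_L, where 2DC_L had 165 ± 13.3 FPKM (SD, n = 3), the log2 change was -0.76 (SE 0.14, edgeR adjusted p = 0.00178).

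The balance of the 2 Dickkopf genes therefore turned between 2D and 3D. The ratio of DKK2 to DKK3 FPKM was 0.756 to 1.07 in 2DC, 0.617 to 1.05 in 2DC_L and 0.525 to 0.776 in 2DF. It was 3.27 to 5.83 in 3DF and 2.35 to 3.87 in 3DF_50. DKK3 held 47.8 to 64.8% of the summed antagonist FPKM in the 2D libraries and 14.5 to 29.0% in the 3D libraries. The summed level of the 10 antagonists was 374 ± 70.2 FPKM in 2DC, 391 ± 59.5 FPKM in 2DC_L, 407 ± 93.5 FPKM in 2DF, 255 ± 33.1 FPKM in 3DF and 135 ± 18.6 FPKM in 3DF_50 (SD, n = 3).

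**Figure D5:**
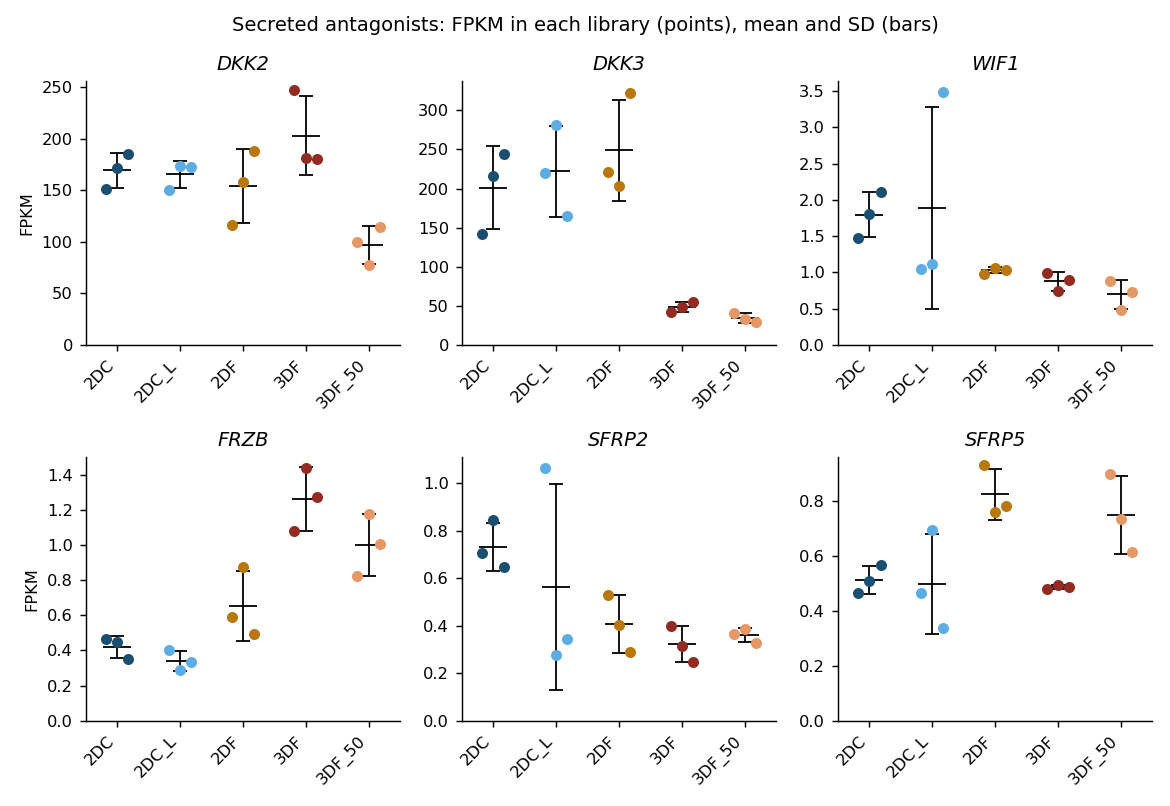
FPKM (vertical axes, each from 0) of 6 secreted antagonists in each library of the 5 conditions, with the mean (wide bar) and SD (whiskers, n = 3). DKK3 is at 55.1 or less in all 3DF and 3DF_50 libraries and at 142 or more in all 2D libraries, DKK2 is lowest in 3DF_50, and FRZB is higher in 3DF and 3DF_50 than in 2DC and 2DC_L.

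The ligand-binding antagonists were present at far lower levels and went in both directions. FRZB (chr7:122924141-122969958, minus strand), also called secreted frizzled-related protein 3, stood at 0.467, 0.448 and 0.349 FPKM in 2DC, at 0.587, 0.873 and 0.492 FPKM in 2DF, and at 1.08, 1.44 and 1.27 FPKM in 3DF. The 3 conditions did not overlap. FRZB rose in 3DF relative to 2DC (log2 fold change 1.57, SE 0.27, edgeR adjusted p = 0.00637), and its difference from 2DF, 0.95, did not pass (SE 0.32, edgeR adjusted p = 0.116). It also rose in 3DF_50, at 0.826, 1.18 and 1.00 FPKM, relative to 2DC_L, at 0.400, 0.288 and 0.336 FPKM (log2 fold change 1.55, SE 0.30, edgeR adjusted p = 0.00265). Both calls were kept in 6 of 6 fits that left out 1 library.

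The summed level of the corneal epithelium markers also rose, from 0.650 to 1.36 FPKM in 2DC, with KRT12 at 0, to 8.63 to 13.9 FPKM in 3DF, with 11 of 12 markers in the table. KRT5, KRT12 and KRT3 held most of the 3DF sum. KRT15, EPCAM, TP63, GJB6 and S100A14 overlapped between 2DC and 3DF. TP63 was at 0.0678 to 0.270 FPKM in 2DC and 0.0717 to 0.112 FPKM in 3DF, and GJB6 at 0.0191 to 0.577 FPKM and 0.0419 to 0.243 FPKM. In 2DF replicates 1, 2 and 3 the markers of this list summed to 1.28, 6.87 and 3.16 FPKM, with FRZB at 0.587, 0.873 and 0.492 FPKM. In 3DF_50 replicates 1, 2 and 3 they summed to 0.301, 0.645 and 6.64 FPKM, with FRZB at 0.826, 1.18 and 1.00 FPKM, and in 2DC_L to between 0.619 and 1.62 FPKM. Vascular endothelium markers summed to 33.0 to 62.7 FPKM in 2DC and 117 to 119 FPKM in 3DF, of which KDR held 30.6 to 115 FPKM over the libraries, while PECAM1 was at most 0.0421 FPKM. Their part in the FRZB result was not tested.

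WIF1 (chr4:43863053-43948970, minus strand), which binds Wnt proteins outside the cell, went the other way. It stood at 1.48, 1.80 and 2.11 FPKM in 2DC, at 0.982, 1.07 and 1.04 FPKM in 2DF, and at 0.996, 0.742 and 0.892 FPKM in 3DF. The 2DC libraries were above all others of these conditions, and 2DF and 3DF overlapped. WIF1 overlaps LOC103348315, which had 0 counts in every library. WIF1 was called lower in 3DF than in 2DC (log2 fold change -1.04, SE 0.24, edgeR adjusted p = 0.0225), close to the fold limit, and in 2 of 6 fits that left out 1 library it remained called, with a log2 fold change from -1.17 to -0.90. In 3DF_50 it was also called lower than in 2DC_L (-1.39, SE 0.48, edgeR adjusted p = 0.0401), but 2DC_L replicate 3 stood at 3.49 FPKM against 1.05 and 1.12 FPKM in the other libraries of that condition, and without it the difference was -0.63 and not called. The call was also lost without any 1 of the 3DF_50 replicates. It was kept in 2 of 6 fits that left out 1 library and in 6 of 10 other settings.

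SFRP2, which binds Wnt ligands through a frizzled-like domain, stood at 0.706, 0.845 and 0.647 FPKM in 2DC (29, 26 and 20 counts), at 0.531, 0.405 and 0.288 FPKM in 2DF, and at 0.399, 0.316 and 0.248 FPKM in 3DF (14, 10 and 7 counts). The 3DF libraries were below those of 2DC, with a log2 change of -1.18 (SE 0.33, edgeR adjusted p = 0.0475). This call was kept in 1 of 9 other settings and 1 of 6 fits that left out 1 library, so it was at the limit of what these counts can show. SFRP5 differed among the 5 conditions (edgeR F test, adjusted p = 0.0479), with means from 0.486 FPKM in 3DF to 0.823 FPKM in 2DF, and was called in no pair. SFRP4 and DKK4 stayed under 1 FPKM in every condition and were not called by edgeR. SFRP1 had 4, 1 and 2 counts in 3DF_50 and 23, 12 and 9 counts in 2DC_L, and it was called lower there by DESeq2 and by edgeR without a filter, whereas the filtered edgeR fit did not test it in that pair. RSPO3, the R-spondin with the most counts, had 13, 8 and 12 counts in 3DF and at most 3 in each 2DC library, too few for the filter in any pair. It was called higher in 3DF than in 2DC by DESeq2, by edgeR without a filter and by edgeR with all 5 conditions in the fit. RSPO3 passed the count filter of the 5-condition fits only through 3D libraries, where it was higher, so that call depends on the filter. The 5-condition fit with the library-name prefix as a block did not call RSPO3 in this pair. Nor did the test for any difference among the 5 conditions (edgeR F test, adjusted p = 0.0576).

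Other genes of the pathway were taken from 4 lists. Among surface and secretion proteins, 27 of 28 genes were in the table and 21 were tested, of which 2 were called in 3DF vs. 2DC (9.52%, beside 7.56% of all genes) and 1 in 3DF vs. 2DF (4.76%, beside 3.78%). CTHRC1, a secreted glycoprotein that stabilizes the complex of Wnt, frizzled and ROR2, was called higher in 3DF than in 2DC, at 13.0 ± 3.20 FPKM against 1.33 ± 0.171 FPKM (SD, n = 3; log2 fold change 3.26, SE 0.25, edgeR adjusted p = 0.000184), and higher than in 2DF, at 1.93 ± 0.813 FPKM (2.75, SE 0.33, edgeR adjusted p = 0.00146). The other gene of this list called in 3DF vs. 2DC was RNF43, a ubiquitin ligase that removes frizzled from the membrane, which was lower (-1.87, SE 0.30, edgeR adjusted p = 0.00435) at under 1 FPKM in both conditions, a gene chosen after its values were seen. In 2DF vs. 2DC edgeR called 0 genes of the list (beside 4.96% of all genes) and DESeq2 called 1 (beside 4.19%). An unadjusted edgeR p under 0.05 was found for 7 of the list, and the share of all genes under it was not computed. In 3DF_50 vs. 2DC_L, 6 were lower and 0 higher, or 28.6% beside 13.5% of all genes. They were RNF43 again and GPC4, a glypican that binds Wnt proteins (log2 fold change -1.78, SE 0.13, edgeR adjusted p = 7.68e-06), RECK, a membrane protein that presents certain Wnt ligands (-1.32, SE 0.15, edgeR adjusted p = 8.61e-05), the glypican GPC3 (-1.61, SE 0.53, edgeR adjusted p = 0.0338), the tetraspanin TSPAN12 (-1.58, SE 0.39, edgeR adjusted p = 0.00862) and WLS. WLS, the carrier that brings Wnt proteins to the cell surface, was at 53.1 ± 3.39 FPKM against 125 ± 10.4 FPKM (-1.23, SE 0.096, edgeR adjusted p = 9.78e-06), and was likewise chosen after its values were seen.

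In the intracellular β-catenin list, with 24 of 31 genes in the table and 23 tested, edgeR called 0 in each of 5 of the 6 pairs. The share of all genes called in these pairs ran from 0.265 to 7.56%. DESeq2 also called 0 in them. An unadjusted edgeR p under 0.05 was found for 1 to 5 genes of the list, a count without a share of all genes to set it against. In the sixth pair 1 of 23 was called (4.35%, beside 13.5% of all genes), namely TCF7L1, a transcription factor of the TCF/LEF family, which was lower in 3DF_50 than in 2DC_L (log2 fold change -1.03, SE 0.091, edgeR adjusted p = 2.03e-05). Of the 11 β-catenin target and feedback genes tested (13 of 18 in the table), 1 was called in each of 4 comparisons (9.09%). The shares of all genes were 7.56% in 3DF vs. 2DC, 4.96% in 2DF vs. 2DC, 3.78% in 3DF vs. 2DF and 13.5% in 3DF_50 vs. 2DC_L. RNF43, which is also a member of this list, was lower in 3DF vs. 2DC and in 3DF_50 vs. 2DC_L. BMP4, a growth factor, was lower in 2DF, at 4.91 ± 0.983 FPKM, than in 2DC, at 11.4 ± 1.21 FPKM (SD, n = 3; log2 fold change -1.21, SE 0.17, edgeR adjusted p = 0.00288), and higher in 3DF than in 2DF (1.12, SE 0.20, edgeR adjusted p = 0.00908). Of 24 planar cell polarity and calcium genes, 1 of 23 tested was called in each of 3DF vs. 2DF and 3DF vs. 2DC (4.35%, beside 3.78% and 7.56% of all genes). NFATC2, a calcium-regulated transcription factor, was lower in 3DF than in 2DF (-1.26, SE 0.18, edgeR adjusted p = 0.00333), and CAMK2A, at under 1 FPKM and also chosen in this way, was higher in 3DF than in 2DC (2.26, SE 0.52, edgeR adjusted p = 0.0203).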

How the data were processed

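The deposited counts are whole reads per gene that the authors obtained by aligning reads to oryCun2 with HISAT2 and counting with featureCounts, without normalization. The deposited FPKM are the same counts divided by the authors by gene length and a library size of 0.921 to 1.24 times the summed counts. This ratio was 1.19 to 1.24 in 3DF_50 and at most 1.08 in the other conditions. In every library the FPKM library size was 1.03 to 1.05 times the TMM-scaled one. Lower FPKM, FPKM sums and edgeR differences in 3DF_50 therefore share nearly the same scaling and are not independent of it. Whether counting used strand is not given in the sources used here. Conditions came from the library labels, and all sample columns were used.

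R 4.3.3 and edgeR 4.0.16 were used to test pairs of conditions (quasi-likelihood F test of the pair alone, two-sided, TMM scaling, a minimum count of 10 in filterByExpr), and all 5 conditions with 1 F test, with Benjamini–Hochberg adjustment over all genes tested. The SE is the log2 fold change divided by the square root of F. On counts simulated for 3DF vs. 2DC (13493 genes, of which 200 differed by 2 on the log2 scale) edgeR recovered 92.5% of the 200 and called 11 other genes. Differences near 1 on the log2 scale, where several member calls lie, were not simulated, so this recovery does not cover them. Libraries of 1 condition differed by more than counting noise. Deviations of same-numbered libraries from their condition mean were weakly correlated in the 6 pairs of conditions tested, with mean correlations from -0.069 to 0.17. All 3 correlations were positive in 2DC vs. 2DC_L (0.313, 0.0769 and 0.117) and in 3DF_50 vs. 2DC_L (0.131, 0.0714 and 0.232). Some same-numbered libraries of these conditions share a library-name prefix, and the labels do not say whether they are paired.

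The members and lists were chosen with earlier results of these data known. Members with a mean of at least 1 FPKM in some condition or called in any of the 7 edgeR tests are named with values, and values per library are given for those called in 3DF vs. 2DC, 2DF vs. 2DC or 3DF vs. 2DF and for the 3 most abundant (DKK2, DKK3 and WNT5A). Of each list, up to 4 called genes with a mean of at least 1 FPKM and the largest fold changes are named. The alternatives were DESeq2 1.42.0, its size factors, scaling by library size, a filter at 1 CPM on average or none, a joint fit of the 5 conditions, a block for the replicate number or for the library-name prefix, limma 3.58.1 on log2 FPKM with 1 or 0.1 added (genes averaging 0.1 FPKM or more), no limit on the fold change, genes named by description, and leaving out each library. The authors' own fold changes were not used. Figures were drawn with Python 3.11.15 and matplotlib 3.10.9.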

Additional observations from a re-analysis of the deposited data

How the results depend on the processing

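Over the alternatives, 111 counts of called members stayed within 1.5 times the count reported and 22 did not. The log2 fold changes of the called members kept their call in 228 fits and lost it in 59, and 0 changed direction. The share of all genes called under the same setting is given in parentheses. With limma on log2(FPKM + 1), 2 members were called in 3DF vs. 2DC (3.62%), 0 in 2DF vs. 2DC (2.04%), 0 in 3DF vs. 3DF_50 (0.0407%) and 3 in 3DF_50 vs. 2DC_L (6.35%), and with log2(FPKM + 0.1) 0 in 3DF vs. 3DF_50 (0.108%). With the library-name prefix as a block, 0 were called in 2DF vs. 2DC (0.114%), 0 in 3DF vs. 2DF (0.0285%) and 0 in 3DF vs. 3DF_50 (0.0712%). A single 2DF library shares its prefix with another condition, so the block fit can hardly separate 2DF from the prefix. With no limit on the fold change, 4 passed in 2DF vs. 2DC (14.4%) and 13 in 3DF_50 vs. 2DC_L (42.9%). DESeq2 (3.20%) and edgeR without a filter (3.15%) each called 2 in 3DF vs. 2DF, DKK3 and WNT2, the latter being left out by the filter. The cause of the other changes was not tested.

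Leaving out 1 library gave 3 to 6 called members in 3DF vs. 2DC (5.46 to 7.48%), 0 to 2 in 2DF vs. 2DC (3.00 to 4.88%), 1 to 1 in 3DF vs. 2DF (2.52 to 3.88%), 0 to 1 in 3DF vs. 3DF_50 (0 to 0.571%), 0 to 0 in 2DC vs. 2DC_L (0.200 to 0.278%), 6 to 9 in 3DF_50 vs. 2DC_L (12.4 to 14.2%) and 11 to 16 among the 5 conditions (34.4 to 43.7%). In 3DF vs. 2DC the fit without 3DF replicate 3 called 3 members (DKK3, FRZB and WNT11) and 828 of all genes, and the fit without 2DC replicate 2 called 4 and 750, where 1020 were called with all libraries. In 2DF vs. 2DC 0 members were called without 2DC replicate 3 (4.67%) and 2 without 2DF replicate 1 (3.00%). In 3DF vs. 3DF_50 the calls over all genes went from 60 to 0 without 3DF_50 replicate 1 or 2 and to 4 without 3DF replicate 3.

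With the replicate number as a block, 6 members were called in 3DF vs. 2DC (7.46%), 1 in 2DF vs. 2DC (4.74%), 1 in 3DF vs. 2DF (3.24%), 1 in 3DF vs. 3DF_50 (0.647%), 0 in 2DC vs. 2DC_L (0.272%), 9 in 3DF_50 vs. 2DC_L (13.8%) and 14 among the 5 conditions (39.2%). The labels do not say whether these numbers pair the libraries. Scaling by library size alone called 0 in 3DF vs. 3DF_50 (0.399%), and it shifted all genes, whose median log2 fold change became 0.19 in 3DF vs. 2DC, 0.11 in 2DF vs. 2DC, -0.15 in 3DF vs. 3DF_50 and 0.36 in 3DF_50 vs. 2DC_L. Under it 3DF vs. 2DC called 2 members as higher and 4 as lower (all genes, 649 and 475), 2DF vs. 2DC called WNT4 as higher and 0 as lower (332 and 323), and 3DF_50 vs. 2DC_L called 4 as higher and 3 as lower (1357 and 747). Depth limits WNT2 and SFRP2, which had few counts in 3D, and the members left out by the filter.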
